A study of Mus musculus with 6 samples.

Results

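The chemokines that draw activated T cells through the receptors CXCR3 and CXCR6 were followed in tumour-associated macrophages of the mouse. They were chosen by symbol as the ligands of these receptors: Cxcl9, Cxcl10 and Cxcl11 for CXCR3, and Cxcl16 for CXCR6. Of these 4 genes, 3 were matched among the 21878 genes of the deposited count table, and all 3 passed the filter on low counts that left 12136 genes for testing. Cxcl11 was not analysed here. The bulk RNA-seq libraries formed 2 groups of 3. The KO group came from mice with the genotype Trmt61a f/f LysmCre, in which Cre is made from the lysozyme M locus of myeloid cells, and the WT group from Trmt61a f/f mice, which carry the same floxed alleles without the Cre. All mice bore tumours of MC38, a mouse colon carcinoma line, and macrophages were sorted by flow cytometry 14 days after injection. Neither the age and sex of the mice nor the sorting gate nor the floxed exons were given in the sources used here. Nothing says that each library came from its own mouse, so p-values reflect only how these samples vary, and part of that may be technical.

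CXCL9 and CXCL10 are small secreted chemokines made by macrophages, dendritic cells and stromal cells after exposure to interferon gamma, which acts through JAK kinases and transcription factors such as IRF1. Cxcl10 is also turned on by type I interferon and by NF-kappaB, while Cxcl9 depends more narrowly on interferon gamma. Both bind CXCR3 on effector T cells and NK cells, and in tumours they are known for guiding CD8 T cells towards the cells that present antigen. CXCL16 differs in structure. It sits on the cell surface on a mucin stalk, also serves as a scavenger receptor for oxidised lipoprotein, and is cut free by the proteases ADAM10 and ADAM17 to act on CXCR6, a receptor of resident and effector T cells. Cxcl11 is annotated as a pseudogene in the C57BL/6J reference genome, where its reading frame is disrupted. The strain of the mice was not given in the sources used here.

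Totals ran from 18839026 to 20313597 counts per library. Trmt61a, the targeted gene and the catalytic subunit of the tRNA m1A methyltransferase, had 157, 138 and 148 counts in WT replicates 1 to 3 and 41, 33 and 50 in KO, so each library followed its label. Macrophage markers were abundant in all libraries, with the sum of 10 genes between 11063 and 12855 CPM in WT and between 10095 and 11055 CPM in KO (CPM are counts relative to the TMM-scaled library total). All KO sums lay below all WT sums, and 8 of the 10 genes had a negative log2 fold change (median -0.12). In 3, C1qa, C1qb and C1qc, every KO value lay below the WT values, as in 6.3% of all tested genes. Of the 10, 2 were lower at an unadjusted p under 0.05, as were 3.06% of all tested genes. None was called by edgeR or DESeq2. The part of these markers in the chemokine results was not tested. Markers of other cells were far lower. The 6 monocyte markers summed to 495 to 639 CPM in WT and 483 to 649 CPM in KO. The 6 fibroblast markers summed to 205 to 323 CPM in WT and 204 to 297 CPM in KO. The 5 epithelial tumour cell markers summed to 77.0 to 141 CPM in WT and 112 to 134 CPM in KO. Nearly all of this was Cdh1, which averaged 115 CPM in WT and 121 in KO, where these sums averaged 115 and 121. The other markers of this list were too low to test. The part of these other cells in the chemokine results was not tested either. The 14 T and NK cell markers summed to 33.0 to 47.1 CPM in WT and to 28.5, 78.6 and 40.8 CPM in KO replicates 1, 2 and 3. The 9 dendritic cell markers summed to 69.1 to 94.6 CPM in WT and 77.1 to 87.0 CPM in KO, and the 10 neutrophil markers to 39.9 to 61.0 and 40.7 to 83.4 CPM. Each of these sums came mostly from 1 gene. Fscn1 averaged 58.3 CPM in WT and 54.6 in KO, where the dendritic cell sums averaged 82.4 and 81.8. Csf3r averaged 41.2 CPM in WT and 43.4 in KO, where the neutrophil sums averaged 48.6 and 57.5. Of the defining neutrophil markers Ly6g was at 0 counts in 5 of 6 libraries. All 4 neutrophil markers tested had a positive log2 fold change (median 0.84), and none was called by edgeR or DESeq2. Of the 4, 2 were higher at an unadjusted p under 0.05, as were 3.86% of all tested genes. Ltf, a granule protein of neutrophils, was read 5, 7 and 3 times in the WT libraries against 13, 17 and 25 times in KO. Elane, of the same list but too low to test, was read 0, 1 and 3 times in WT and 0 times in each KO library. The other neutrophil markers too low to test all had a higher mean CPM in KO than in WT, at no more than 33 counts in any library. Of 13 T and NK cell markers tested, 12 were positive (median 0.34) and none was called. Of the 13, 1 was higher at an unadjusted p under 0.05, against the same 3.86% of all tested genes. KO replicate 2 held the highest T and NK cell and neutrophil sums and lay at one end of the first principal component (29.4, against -18.0 to 5.26 for the other libraries).

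Both CXCR3 ligands lie in tandem on the minus strand of chromosome 5 in the GRCm38 assembly. Cxcl9 (NCBI Gene 17329) spans 92321347 to 92328079, and Cxcl10 (NCBI Gene 15945) spans 92346638 to 92348889, 18.6 kb away. The annotated Cxcl11 pseudogene (92359544 to 92365485) follows 10.7 kb further on. Cxcl16 (NCBI Gene 66102) lies apart from them on chromosome 11, 70453983 to 70459984, also on the minus strand. The 250 bases before the annotated start of Cxcl9 and Cxcl10 are shown because both neighbours were lower in every KO library than in any WT library. The sequences are from RefSeq on GRCm38.p6, at chr5:92328080-92328329 for Cxcl9 and chr5:92348890-92349139 for Cxcl10, minus strand in each case, and the table used held no entry for Cxcl16. Capitals mark exact matches on either strand. The motifs were the interferon regulatory factor element GAAANNGAA, the NF-kappaB consensus GGGRNWYYCC, the gamma-activated site TTCNNNGAA, the CCAAT box CCAAT and the TATA element TATAAA. In these, R is A or G, W is A or T, Y is C or T, and N is any base.
Cxcl9: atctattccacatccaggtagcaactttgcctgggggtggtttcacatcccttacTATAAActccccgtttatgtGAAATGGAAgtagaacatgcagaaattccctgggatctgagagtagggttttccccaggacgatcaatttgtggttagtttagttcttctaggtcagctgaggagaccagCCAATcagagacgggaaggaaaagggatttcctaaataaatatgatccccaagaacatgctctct
Cxcl10: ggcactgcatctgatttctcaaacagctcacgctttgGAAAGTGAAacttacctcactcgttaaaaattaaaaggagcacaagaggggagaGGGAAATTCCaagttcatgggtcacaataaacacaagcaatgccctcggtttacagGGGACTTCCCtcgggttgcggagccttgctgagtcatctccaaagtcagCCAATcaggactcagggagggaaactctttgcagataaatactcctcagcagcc

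Each window held 1 interferon regulatory factor element, GAAAGTGAA beginning 213 bases before the start of Cxcl10 and GAAATGGAA beginning 175 bases before that of Cxcl9. The NF-kappaB consensus matched the Cxcl10 window at 2 places, GGGAAATTCC at 159 bases and GGGACTTCCC at 103 bases, and had no exact match in the Cxcl9 window. Sites that depart from this consensus were not searched for, so the Cxcl9 window was not shown to lack NF-kappaB sites. A CCAAT box began 65 bases before Cxcl9 and 54 bases before Cxcl10. TATAAA occurred in the Cxcl9 window alone, at 195 bases, and the gamma-activated site in neither. The motifs were chosen with these sequences in view, and no match overlapped another. Of 32851 RefSeq windows of the same length, 7.13% held the interferon regulatory factor element, 3.90% the NF-kappaB consensus, 7.02% the gamma-activated site, 33.8% a CCAAT box and 12.4% TATAAA. The longest run of bases that both windows share was CAGCCAATCAG, 11 bases around the CCAAT box, found in 0.399% of the windows. These matches describe letters only and are not measured binding sites.

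Cxcl10 had the lowest KO level relative to WT of the 3 chemokines. It stood at 573, 246 and 331 CPM in WT replicates 1, 2 and 3 and at 120, 192 and 186 CPM in KO replicates 1, 2 and 3. Every KO library lay below every WT library, with 54.0 CPM between the highest KO and the lowest WT value, and WT replicate 1 stood far above the rest. The means were 383 ± 169 CPM in WT against 166 ± 39.8 in KO (SD, n = 3 each). The log2 fold change of KO over WT was -1.21 (SE 0.315, 95% interval -1.94 to -0.471), a KO level 0.434 of the WT level. With edgeR this did not pass over the 12136 genes tested (unadjusted p = 0.00565, rank 88, adjusted p = 0.701). The log2 value was -0.80 without WT replicate 1, and it stayed below 0 in all 17 alternatives.

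Cxcl9 showed a smaller difference in the same direction. Its levels were 634, 489 and 546 CPM in WT replicates 1, 2 and 3 and 266, 441 and 438 CPM in KO. The groups were again apart, by 48.2 CPM, with KO replicate 1 well below the other KO libraries. The means were 556 ± 72.8 CPM in WT against 382 ± 100 in KO (SD, n = 3 each), and the log2 fold change was -0.54 (SE 0.193, 95% interval -0.989 to -0.0964), which did not pass with edgeR (unadjusted p = 0.0232, adjusted p = 0.703). Without KO replicate 1 the log2 value was -0.34.

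Cxcl16, the membrane-anchored CXCR6 ligand, differed least. It was at 573, 529 and 521 CPM in WT replicates 1, 2 and 3 and at 468, 552 and 438 CPM in KO. The groups overlapped, since KO replicate 2 lay above WT replicates 2 and 3. With means of 541 ± 28.0 CPM in WT against 486 ± 59.0 in KO (SD, n = 3 each), the log2 fold change was -0.15 (SE 0.0938, edgeR unadjusted p = 0.133, adjusted p = 0.759). Its 95% interval ran from -0.363 to 0.0559, so a KO level below 0.778 or above 1.04 of the WT level lay outside it. The log2 value was -0.25 without KO replicate 2 and -0.082 without KO replicate 3.

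**Figure D1:**
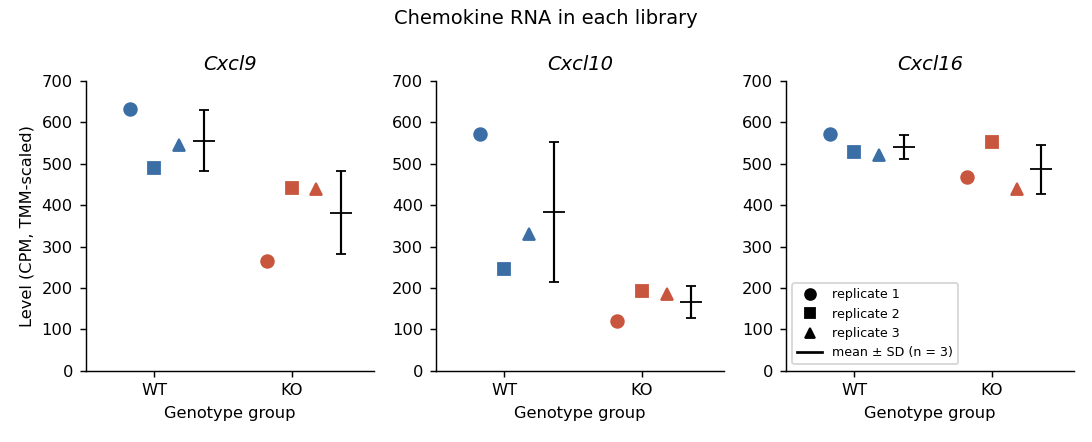
Level of each chemokine (y axis, CPM, linear from 0) in the 3 WT and 3 KO libraries (x axis); points are libraries, with a symbol for each replicate number, and the bars beside them are the mean ± SD. All KO points lie below all WT points for Cxcl10 and Cxcl9, and the groups overlap for Cxcl16, where KO replicate 2 reached 552 CPM.

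None of the 3 chemokines was called at an adjusted p under 0.05, where edgeR called 0.0165% of all tested genes (2 genes, both lower in KO). DESeq2 also called none of them (adjusted p = 0.316 for Cxcl10, 0.190 for Cxcl9 and 0.911 for Cxcl16), against 0.173% of genes called lower and 0.0659% higher. At an unadjusted p under 0.05, 2 of the 3 were lower, against 3.06% of all tested genes. In 2 of the 3 the KO values all lay below the WT values, which held for 6.3% of tested genes, and 6.11% had all KO values above. The median log2 fold change of the 3 was that of Cxcl9, -0.54, and that of all tested genes was -0.00088. In bulk RNA, fewer cells that make a chemokine and less RNA in each cell cannot be told apart.

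The CXCR3 ligands varied more between libraries of a group than most genes of their abundance. The biological coefficient of variation that edgeR estimated was 0.265 for Cxcl10, 0.169 for Cxcl9 and 0.0926 for Cxcl16, while the median over the 2119 tested genes with a mean of at least 100 CPM was 0.0816. Within WT alone the SD was 44.2% of the mean for Cxcl10, 13.1% for Cxcl9 and 5.19% for Cxcl16. Within KO alone it was 23.9% for Cxcl10, 26.2% for Cxcl9 and 12.1% for Cxcl16. Counting error was small beside this, at most 2.08% in any library, for the 2317 Cxcl10 counts of KO replicate 1. Depth therefore did not set the width of the intervals.

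Scaled by exon length, so that genes can be compared, the order of the 3 RNAs depended on the library. In CPM per kb of exons of protein-coding transcripts, the WT means were 252 ± 111 for Cxcl10, 200 ± 10.4 for Cxcl16 and 192 ± 25.2 for Cxcl9 (SD, n = 3), and no neighbours in this order differed by more than their spread. Cxcl10 led in WT replicates 1 and 3, at 377 and 218 CPM per kb, and was lowest in WT replicate 2, at 162. The KO means were 180 ± 21.8 for Cxcl16, 132 ± 34.6 for Cxcl9 and 109 ± 26.2 for Cxcl10. In each of the 3 KO libraries Cxcl16 was highest and Cxcl10 lowest, while none of the WT libraries other than replicate 2 had that order.

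The ratio of Cxcl10 to Cxcl9 within a library does not depend on how libraries are scaled to each other. It was 0.904, 0.503 and 0.607 in WT replicates 1, 2 and 3 and 0.452, 0.435 and 0.425 in KO. The KO ratios lay close together and all below the WT ratios, which ranged widely. Their mean log2 ratios differed by -0.574 (WT -0.619 ± 0.432, KO -1.19 ± 0.0444, SD, n = 3 each; two-sided exact permutation p = 0.1, the smallest that 3 against 3 libraries allow, adjusted p = 0.15 over the 3 pairs of chemokines). Without WT replicate 1 the difference was -0.337. As a share of the summed CPM of both CXCR3 ligands, Cxcl10 made up 33.4% to 47.5% in WT and 29.8% to 31.1% in KO, and the sum itself was 1206, 735 and 877 CPM in WT and 387, 633 and 624 CPM in KO.

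Set against Cxcl16, Cxcl10 was also lower in each KO library. The ratio was 0.999, 0.465 and 0.636 in WT replicates 1, 2 and 3 and 0.257, 0.347 and 0.425 in KO, a difference of -0.987 in mean log2 ratio (exact permutation p = 0.1, adjusted p = 0.15). The ratio of Cxcl9 to Cxcl16 overlapped, with 1.11, 0.925 and 1.05 in WT and 0.568, 0.798 and 0.9996 in KO (difference in mean log2 ratio -0.413, exact permutation p = 0.2, adjusted p = 0.2). Only KO replicates 1 and 2 lay below the WT libraries here, and without KO replicate 1 the difference was -0.196. With 3 libraries a group, none of these tests could reach 0.05.

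**Figure D2:**
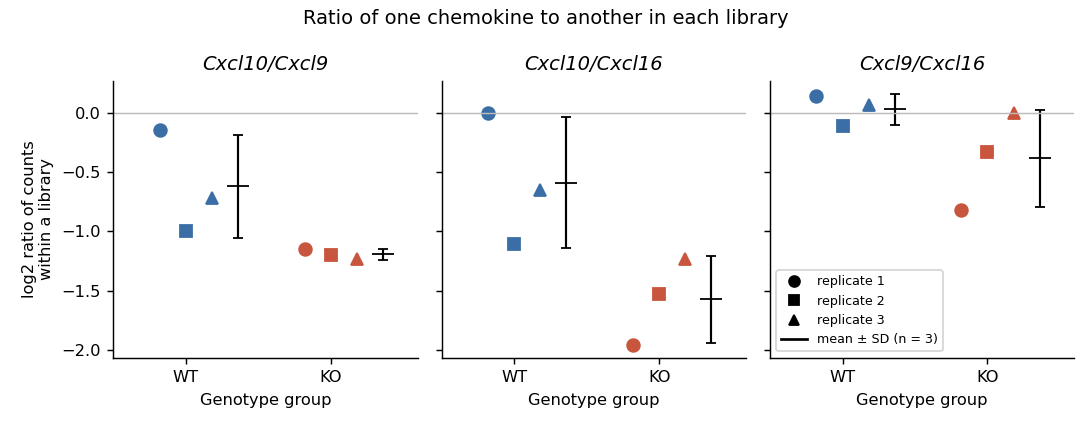
Log2 ratio of the counts of a pair of chemokines (y axis) within each WT and KO library (x axis, points by replicate number, bars mean ± SD). The 3 KO ratios of Cxcl10 to Cxcl9 sit together between -1.23 and -1.15, below WT ratios of -0.992 to -0.146.

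The receptors that read these ligands were near the limit of detection, in cells sorted as macrophages. Cxcr3, the receptor of CXCL9 and CXCL10, had 13, 25 and 28 counts in WT replicates 1, 2 and 3 and 15, 43 and 23 in KO. Cxcr6, the receptor of CXCL16, had 24, 24 and 38 in WT and 29, 66 and 24 in KO. Both were highest in KO replicate 2, the library with the highest sum of T and NK cell markers, and neither passed with edgeR (log2 0.32, SE 0.455, and 0.50, SE 0.430; adjusted p = 0.886 and 0.818). Without KO replicate 2 both values turned negative, to -0.21 and -0.10. Ackr3, a scavenging receptor that binds CXCL11 and CXCL12, was more abundant at 47.6 ± 14.4 CPM in WT against 67.7 ± 9.51 in KO (SD, n = 3 each; log2 fold change 0.51, SE 0.210, edgeR adjusted p = 0.713). Ackr1, a chemokine-binding receptor of red cells and venules, had at most 2 counts in any library.

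Of 6 proteases known to process these chemokines, none was called by edgeR or DESeq2 and 2 had a positive difference with an unadjusted p under 0.05, as did 3.86% of all tested genes. Of the sheddases of CXCL16, Adam10 stood at 397 ± 9.55 CPM in WT against 369 ± 15.1 in KO and Adam17 at 259 ± 15.7 and 239 ± 12.2 CPM (SD, n = 3 each; log2 fold change -0.10 and -0.12, edgeR adjusted p = 0.780 for each). Dpp4, the dipeptidyl peptidase that trims the N terminus of CXCR3 ligands, was scarce, with 34 to 65 counts in WT and 38 to 97 in KO. Anpep, an aminopeptidase, was at 586 ± 28.0 and 619 ± 75.7 CPM. The gelatinase Mmp9 averaged 39.5 ± 8.48 CPM in WT against 78.9 ± 41.1 in KO (log2 0.997, SE 0.352, edgeR adjusted p = 0.703), with a log2 value of 0.497 without KO replicate 1. Mmp8, the neutrophil collagenase, was at 11.1 ± 3.08 and 16.3 ± 1.86 CPM (log2 0.55, SE 0.190, edgeR adjusted p = 0.701).

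The interferons that induce the ligands were hardly present in the sorted cells. Ifng had 36, 9 and 30 counts in WT replicates 1, 2 and 3 and 10, 38 and 17 in KO (log2 -0.18, SE 0.589, edgeR adjusted p = 0.954). Within each group the 3 libraries had the same order by Ifng count as by Cxcl9 and Cxcl10 level, although KO replicates 2 and 3 were nearly equal in both chemokines. Across groups the levels were not matched, since KO replicate 2 had the most Ifng counts of all 6 libraries and less Cxcl9 and Cxcl10 than any WT library. KO replicate 2 also had the highest sum of T and NK cell markers, and the source of the Ifng reads was not tested. These orders rest on 9 to 38 Ifng counts, and a link between Ifng and the chemokines was not tested. Ifnb1 had 0 to 7 counts in each library and was not tested, Ifna2 had 3 counts in WT replicate 1 alone, and 6 of the 9 interferon genes looked for had 0 counts throughout.

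Signalling genes of the interferon gamma route had a median log2 fold change of -0.033, with 7 of 9 tested genes negative, none called by edgeR or DESeq2 and none at an unadjusted p under 0.05. The receptor subunit Ifngr1 had a log2 value of 0.16 (SE 0.0847), the other subunit Ifngr2 of -0.16 (SE 0.0834), and the kinase Jak2 of -0.18 (SE 0.107). Without WT replicate 1 Ifngr2 was at -0.080 and Jak2 at -0.078, and without KO replicate 2 Ifngr1 was at 0.095. On the type I interferon route the median was -0.053, with 6 of 10 values below 0. Leading by p were Usp18, a brake on the receptor (-0.31, SE 0.255), the transcription factors Irf7 (-0.25, SE 0.198) and Stat2 (0.14, SE 0.141), and the receptor subunit Ifnar2 (-0.086, SE 0.0696). Without WT replicate 1 the values were -0.0068 for Usp18, -0.035 for Irf7 and -0.041 for Ifnar2. None of these 10 was called by either tool or had an unadjusted p under 0.05.

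Other genes that interferon gamma induces in macrophages had negative log2 values throughout, a pattern already known from these libraries when the list was drawn up. All 15 tested were negative with a median of -0.39, where 50.2% of all tested genes were negative. The 15 values come from the same 6 libraries and are not independent of each other. In 1 of the 15 every KO value lay below the WT values, as in 6.3% of all tested genes. None was called by edgeR or DESeq2, and 3 had an unadjusted p under 0.05, against 3.06% of all tested genes that were lower at that level. Gbp5, a guanylate-binding protein that helps to assemble inflammasomes, came closest to Cxcl10 at 198, 88.4 and 133 CPM in WT replicates 1, 2 and 3 and 48.5, 84.0 and 74.7 CPM in KO, with no overlap (log2 -1.02, SE 0.306, edgeR adjusted p = 0.701). Gbp2 and Gbp7, of the same family, had log2 values of -0.59 (SE 0.247) and -0.42 (SE 0.188), and Iigp1, a GTPase that attacks pathogen vacuoles, of -0.59 (SE 0.225). Without WT replicate 1 Gbp5 was at -0.68, Gbp2 at -0.33, Gbp7 at -0.24 and Iigp1 at -0.36.

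Among genes of TNF and NF-kappaB signalling, the other route to Cxcl10, 7 of 14 were lower at an unadjusted p under 0.05, as were 3.06% of all tested genes, and none was called by edgeR or DESeq2. The median was -0.15, with 9 negative. Nfkbiz, which encodes the nuclear cofactor I-kappa-B zeta, was at 721, 334 and 445 CPM in WT replicates 1, 2 and 3 and at 246, 287 and 252 CPM in KO. Like Cxcl10, it was lower in every KO library than in any WT library and highest in WT replicate 1 (log2 -0.93, SE 0.248, edgeR adjusted p = 0.701; -0.57 without WT replicate 1). Rel, the subunit c-Rel, was at 153, 130 and 132 CPM in WT and 92.6, 119 and 89.7 CPM in KO, again with no overlap (log2 -0.46, SE 0.116, edgeR adjusted p = 0.694). Relb and Nfkb2, the subunits of the alternative NF-kappaB pathway, had log2 values of -0.25 (SE 0.104) and -0.21 (SE 0.0844).

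Of 8 factors that control the decay or stability of chemokine and cytokine mRNAs, 3 were negative, with a median of 0.058 and none called by edgeR. At an unadjusted p under 0.05 with edgeR, 1 of the 8 was lower and 1 higher, against 3.06% and 3.86% of all tested genes. Zc3h12a, the RNase regnase-1, averaged 284 ± 36.9 CPM in WT against 192 ± 12.3 in KO (SD, n = 3 each, log2 fold change -0.56, SE 0.0985, edgeR adjusted p = 0.438). It was the single gene of the list that DESeq2 called (adjusted p = 4.68e-04), where DESeq2 called 0.173% of all tested genes lower and 0.0659% higher. Zfp36l2, of the tristetraprolin family that binds AU-rich elements, was at 288 ± 40.4 and 387 ± 32.8 CPM (log2 0.43, SE 0.109, edgeR adjusted p = 0.694). Zfp36 itself had a log2 value of 0.10 (SE 0.0986) and Rc3h1, the decay factor Roquin, of 0.14 (SE 0.0727).

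**Figure D3:**
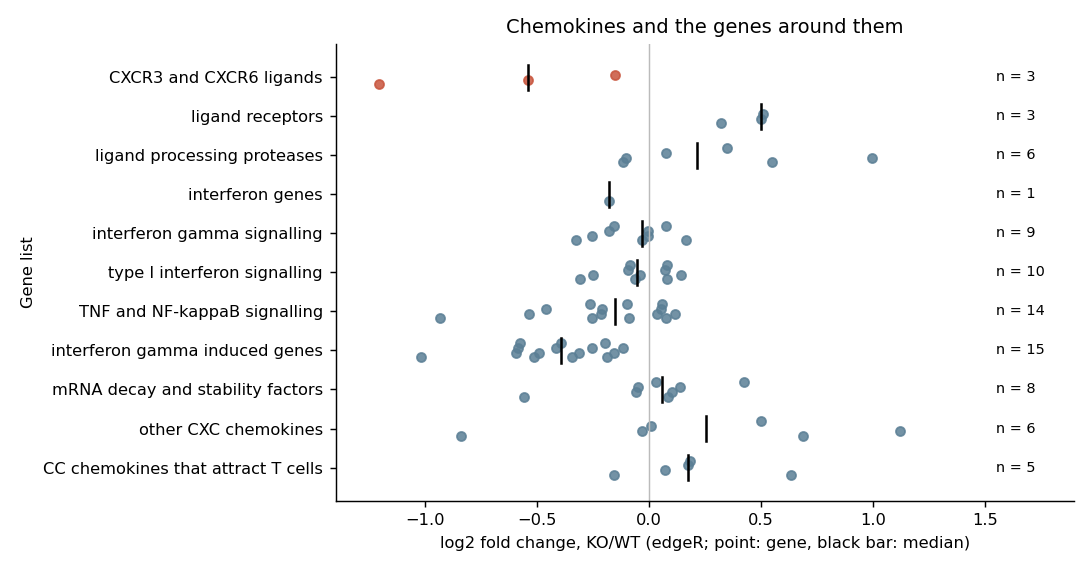
Log2 fold change of KO over WT (x axis) for each tested gene of the lists named on the y axis, with black bars at the medians and the number of genes at the right. The CXCR3 and CXCR6 ligands lie at -1.21, -0.54 and -0.15, and the 15 interferon gamma induced genes all below 0. In the receptor list Cxcr3 lies at 0.32, Cxcr6 at 0.50 and the scavenging receptor Ackr3 at 0.51. Without KO replicate 2 the values of Cxcr3 and Cxcr6 were -0.21 and -0.10.

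Other chemokines had log2 values on both sides of 0. Of 6 tested CXC chemokines, 2 were negative and the median was 0.25. At an unadjusted p under 0.05 with edgeR, 1 of the 6 was lower and 2 were higher, against 3.06% and 3.86% of all tested genes. Cxcl1, a neutrophil attractant, averaged 316 ± 41.8 CPM in WT against 176 ± 39.6 in KO (SD, n = 3 each, log2 fold change -0.84, SE 0.164). It was the 1 gene of the 6 called by DESeq2 (adjusted p = 1.56e-04), against 0.173% of all tested genes called lower and 0.0659% higher. With edgeR Cxcl1 was not called (adjusted p = 0.694). Its relative Cxcl3 was at 138 ± 10.1 and 222 ± 74.2 CPM, with KO replicate 2 among the WT values (log2 0.69, SE 0.230, edgeR adjusted p = 0.701). The platelet chemokine genes Pf4 and Ppbp had log2 values of 0.50 (SE 0.192) and 1.12 (SE 0.506), which were 0.25 and 0.54 without KO replicate 1. Among 5 tested CC chemokines that attract T cells, 1 was negative and the median was 0.17, with none called and none at an unadjusted p under 0.05. Ccl17 and Ccl22, ligands of CCR4, had values of 0.64 (SE 0.365) and 0.17 (SE 0.355), and the inflammatory chemokines Ccl3 and Ccl4 of 0.18 (SE 0.0949) and -0.16 (SE 0.148). Ccl17 was at 0.22 and Ccl22 at -0.38 without KO replicate 2, and Ccl4 at 0.050 without WT replicate 1. The differences between these chemokines and Cxcl9 or Cxcl10 were not tested.

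Genes beside the chemokines were checked because reads of overlapping genes on opposite strands can be mixed where counting does not use the strand. Art3 runs across the Cxcl10 gene on the other strand and shares 133 exon bases with it, but had at most 7 counts in any library. Zmynd15 shares 552 exon bases with Cxcl16, head to head, and averaged 53.2 ± 6.33 CPM in WT against 50.1 ± 10.2 in KO. The 6 tested genes within 200 kb of Cxcl9 and Cxcl10 had a median log2 fold change of 0.032 (-0.31 to 0.80), and the 13 within 200 kb of Cxcl16 had a median of -0.055 (-0.58 to 0.19). None of these 19 neighbours was called by edgeR.

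Over the 6 libraries, the genes whose log2 CPM most resembled Cxcl9 among 9622 compared were Isg15, a ubiquitin-like antiviral modifier (Pearson r = 0.993), Tlr12, a receptor for profilin (0.991), Ifi203, of the interferon-inducible DNA-binding family (0.987), Slamf9 (0.987) and the intramembrane protease Sppl2a (0.986). For Cxcl10 they were Clec4e, the receptor Mincle (0.996), the ubiquitin ligase Rnf213 (0.995), the DNA repair genes Apex2 (0.994) and Polb (0.992), and Bst2, the antiviral factor tetherin (0.992). For Cxcl16 they were Tank (0.986), Mtmr12 (0.984), Pdhx (0.982), Sec22a (0.979) and Abhd16a (0.977). The top 5 of the 3 chemokines had no gene in common. Cxcl10 and Cxcl9 correlated with each other at 0.923, which put 172 genes closer to Cxcl9 than Cxcl10 was, while Cxcl16 correlated with Cxcl9 at 0.624 and with Cxcl10 at 0.687. These coefficients describe 6 points that share libraries and span both groups, so the difference between groups enters them, and the top genes were picked from all those compared.

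**Figure D4:**
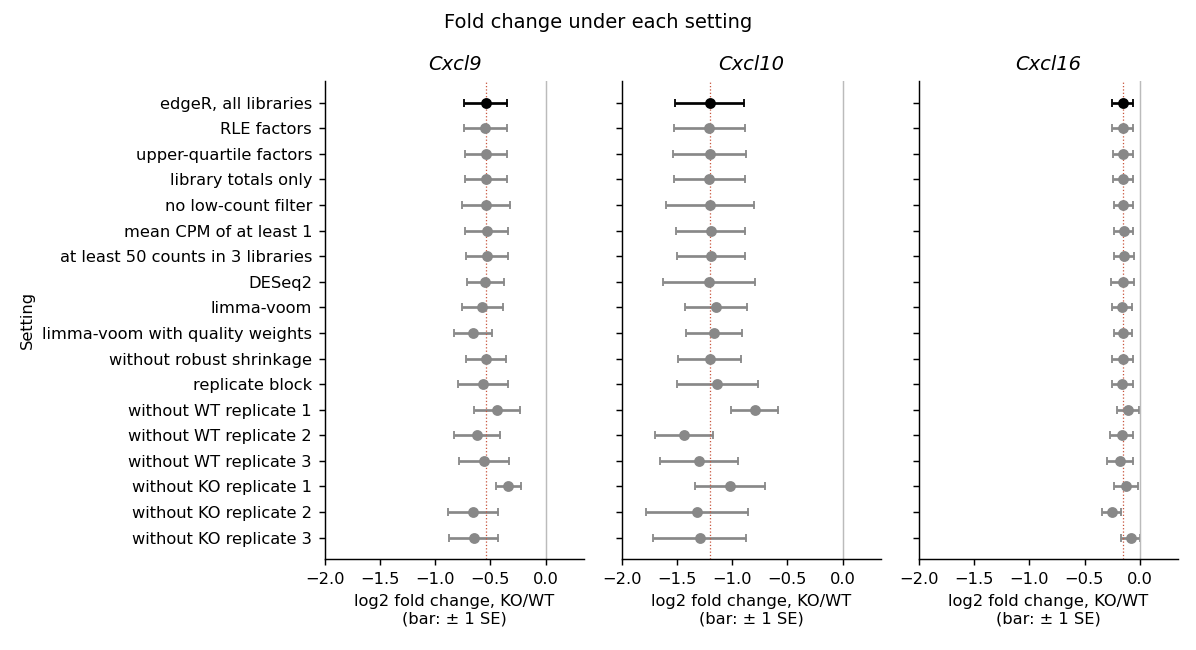
Log2 fold change of KO over WT (x axis, bars ± 1 SE) of each chemokine under the settings listed on the y axis, with the edgeR value from all libraries in black and as a dotted line. Every value lies below 0, with Cxcl10 ranging from -1.44 to -0.80, Cxcl9 from -0.66 to -0.34 and Cxcl16 from -0.25 to -0.082.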

How the data were processed

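Bulk mRNA of sorted tumour macrophages was measured in 6 libraries, made with a TruSeq stranded mRNA kit per the labels' protocols. The authors deposited raw read counts per gene. The submitters' processing notes list Trimmomatic, HISAT2, Cufflinks, HTSeq and the build mm10, with no version or role for any. Annotation and strand setting: not given in the sources used here. Counts were tested with edgeR 4.0.16 in R 4.3.3: filterByExpr (minimum count 10, minimum total 15; 99.962% of reads kept), TMM factors, and a robust quasi-likelihood fit with genotype as the only term. P-values were Benjamini-Hochberg adjusted over 12136 genes and called under 0.05. Levels are CPM on TMM-scaled totals. Ratios of counts within a library were tested by two-sided exact permutation in scipy 1.17.1. Log2 CPM for correlations used a prior count of 2 and genes with a mean of at least 5 CPM, without symbols of predicted genes (Gm and digits, or ending in Rik).

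Gene positions and exons came from GENCODE M21. Members, lists and tests were chosen with earlier results of these data known. The chemokines and Trmt61a are named always, receptors, interferon genes and proteases in full, and of each other pathway list up to 4 tested genes with the smallest p. Some items under this rule are not reported here. Ackr1, Art3, Zmynd15, Ly6g, Ltf, Elane, Csf3r, Fscn1, Cdh1, C1qa, C1qb, C1qc, Ifna2 and Ifnb1 were named after their values were seen. On counts simulated for these 12136 genes, edgeR recovered 67.2% of genes changed 1.5-fold, 92.5% changed 2-fold and 97.0% changed 4-fold, with 14 false calls among 185. Among tested genes with a mean of at least 100 CPM, the coefficients of variation of Cxcl10 and Cxcl9 lay at percentiles 99.7 and 97.3. Recovery of genes that vary as much was not examined separately, so these shares do not give the chance of a call for them. Alternatives were other scalings and filters, DESeq2 1.42.0, limma 3.58.1 (voom with and without quality weights), a fit with no robust shrinkage, a block for the replicate number, and each library left out in turn.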

Additional observations from a re-analysis of the deposited data

How the results depend on the processing

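Cxcl9, Cxcl10 and Cxcl16 kept a negative log2 fold change and stayed uncalled in all 17 alternatives, with adjusted p from 0.190 to 0.999, 0.269 to 0.999 and 0.610 to 0.999. Leaving out 1 library gave -0.659 to -0.340 for Cxcl9, -1.44 to -0.797 for Cxcl10 and -0.255 to -0.0818 for Cxcl16. The ratios between members kept their direction in each of their 7 alternatives. With 1 library left out they ran from -0.760 to -0.337 for Cxcl10/Cxcl9, -1.25 to -0.695 for Cxcl10/Cxcl16 and -0.603 to -0.196 for Cxcl9/Cxcl16. The number of genes called was 2, and it was 1 with RLE factors, upper-quartile factors, library totals only, no filter, limma-voom or the replicate block, 0 with a mean CPM of at least 1 or at least 50 counts in 3 libraries, 4 with quality weights and 29 with DESeq2 (the cause was not tested). Leaving out 1 library gave 0 to 5 calls.

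Of 57 genes with a fold change under the naming rule, 43 had a log2 value that 1 left-out library moved by over 1.5 times, Cxcl9, Cxcl10 and Cxcl16 among them. Direction reversed for 8 other named genes, none of them called. With 1 library left out the log2 values ran from -0.0141 to 0.165 for Anpep, -0.384 to 0.409 for Ccl22, -0.270 to 0.0499 for Ccl4, -0.207 to 0.606 for Cxcr3, -0.104 to 0.779 for Cxcr6, -0.191 to 0.601 for Dpp4, -0.883 to 0.187 for Ifng and -0.0243 to 0.254 for Stat2. With quality weights Ccl22 was at -0.0861 and Cxcr3 at -0.0708. Same-numbered libraries of the 2 groups did not deviate together (correlations -0.0574, -0.0941 and -0.109), so the number was not used as a pairing. With it as a replicate block the log2 values were -0.569 for Cxcl9, -1.13 for Cxcl10 and -0.159 for Cxcl16, none called. Precision was limited by 3 libraries a group, and for Cxcr3, Cxcr6, Ifng and Dpp4 also by counts below 100 in each library.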
